A study of Homo sapiens with 12 samples.

Results

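Heat shock proteins and chaperones help other proteins to fold and to stay folded. The group described here holds 10 human genes, found by pairing the Ensembl IDs of the count files with gene symbols, of 57820 gene IDs in all. All 10 were among the 16999 genes that passed the filter on low counts. The cells were AsPC-1, an established human pancreatic cancer line that grows as an epithelium. They received a scrambled siRNA as the control (siControl) or one that targets ARNT (siARNT), the partner that the oxygen-regulated HIF alpha subunits need to bind DNA. The following day each well was split between normoxia (21% O2) and a chamber at 1% O2 for 24 h (hypoxia), and RNA was taken 48 h after transfection. This gives 4 groups of 3 libraries (replicates A, B and C), named by oxygen and siRNA, such as normoxia siControl. The model is 1 cell line, a knockdown rather than a deletion of ARNT, and 1 time of hypoxia, and each normoxia well shares its transfection with a hypoxia well.

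HSP70 proteins bind exposed stretches of unfolded clients and let them go through cycles of ATP use, J-domain proteins such as DNAJB1 deliver the clients and start the cycle, and HSP110 proteins such as HSPH1 reset it. HSP90 proteins take over clients that are nearly folded, among them kinases and steroid receptors, HSPD1 forms the folding chamber of mitochondria, and small heat shock proteins such as HSPB1 hold unfolded clients without ATP. The inducible members are switched on by the heat shock factor HSF1 when unfolded protein builds up in the cytosol, while HSPA5 (BiP), the HSP70 of the endoplasmic reticulum (ER), answers the unfolded protein response of that compartment.

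The promoter sequences hold letters that match motifs known for these 2 kinds of control, spread unequally over the 10 genes. They are printed as the 250 bases before the gene start, 5′ to 3′ on the strand of the gene, from RefSeq (GRCh38.p14). All 10 genes matched the table, with 16 starts between them. Capitals mark the heat shock element of 3 units (GAANNTTCNNGAA or TTCNNGAANNTTC, which cover both strands) in the first 4 sequences, and in HSPA5 the ER stress element (CCAAT and CCACG with 9 bases between them, searched on both strands). In the last 3 the capitals mark 2 units (GAANNTTC or TTCNNGAA), since 3 units were not in the window. The first 5 are shown because they hold the longer elements, HSPA1A and HSPA1B because they are near copies, and DNAJB1 because it is called below in the siARNT comparisons. A match is a run of letters and not a measured site, and the absence of one says only that the letters are not in the window.
HSP90AA1, its second start, minus strand, chr14:102087045-102087294: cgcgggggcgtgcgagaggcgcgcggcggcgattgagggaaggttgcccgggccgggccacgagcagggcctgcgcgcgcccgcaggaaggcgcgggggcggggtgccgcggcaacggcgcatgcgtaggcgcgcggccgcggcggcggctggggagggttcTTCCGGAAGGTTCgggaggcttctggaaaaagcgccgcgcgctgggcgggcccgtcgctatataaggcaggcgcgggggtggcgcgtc
HSPD1, its second start, minus strand, chr2:197499841-197500090: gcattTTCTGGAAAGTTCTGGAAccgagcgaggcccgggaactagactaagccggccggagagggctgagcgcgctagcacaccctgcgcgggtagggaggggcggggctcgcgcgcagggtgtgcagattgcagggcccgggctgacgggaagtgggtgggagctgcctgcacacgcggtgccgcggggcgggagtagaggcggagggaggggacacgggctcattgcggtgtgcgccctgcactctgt
HSPA8, minus strand, chr11:123062137-123062386: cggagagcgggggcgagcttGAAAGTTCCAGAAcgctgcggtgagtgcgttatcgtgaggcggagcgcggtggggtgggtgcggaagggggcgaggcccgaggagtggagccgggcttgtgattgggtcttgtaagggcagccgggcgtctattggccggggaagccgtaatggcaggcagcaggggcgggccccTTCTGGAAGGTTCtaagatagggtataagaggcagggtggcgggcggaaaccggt
HSP90AB1, the third start, plus strand, chr6:44247693-44247942: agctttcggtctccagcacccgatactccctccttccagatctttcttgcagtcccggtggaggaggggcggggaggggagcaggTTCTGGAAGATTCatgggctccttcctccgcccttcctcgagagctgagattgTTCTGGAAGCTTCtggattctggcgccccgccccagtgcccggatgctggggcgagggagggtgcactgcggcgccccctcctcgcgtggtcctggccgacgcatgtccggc
HSPA5, minus strand, chr9:125241344-125241593: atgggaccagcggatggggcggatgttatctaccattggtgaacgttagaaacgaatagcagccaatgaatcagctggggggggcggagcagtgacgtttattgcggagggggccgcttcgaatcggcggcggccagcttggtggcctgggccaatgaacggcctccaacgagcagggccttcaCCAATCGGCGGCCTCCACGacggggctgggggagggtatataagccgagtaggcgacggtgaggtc
HSPA1A, plus strand, chr6:31815293-31815542: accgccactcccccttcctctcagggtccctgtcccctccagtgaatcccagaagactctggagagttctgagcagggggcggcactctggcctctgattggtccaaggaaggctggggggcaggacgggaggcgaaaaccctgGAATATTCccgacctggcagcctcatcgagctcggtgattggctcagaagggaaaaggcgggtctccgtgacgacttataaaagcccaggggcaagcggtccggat
HSPA1B, plus strand, chr6:31827488-31827737: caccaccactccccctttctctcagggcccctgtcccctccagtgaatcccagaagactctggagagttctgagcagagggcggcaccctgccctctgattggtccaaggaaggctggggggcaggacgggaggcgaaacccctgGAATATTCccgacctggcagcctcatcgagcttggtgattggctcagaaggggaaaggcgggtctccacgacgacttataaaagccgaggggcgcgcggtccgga
DNAJB1, its second start, minus strand, chr19:14518398-14518647: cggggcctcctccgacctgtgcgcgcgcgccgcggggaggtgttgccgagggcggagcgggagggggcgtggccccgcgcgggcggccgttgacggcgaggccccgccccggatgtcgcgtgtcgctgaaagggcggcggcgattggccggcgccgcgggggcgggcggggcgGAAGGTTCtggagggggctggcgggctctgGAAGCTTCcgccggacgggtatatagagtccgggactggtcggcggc

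Searched over the 250 bases before and the 50 after each start, the element of 3 units was in promoters of HSP90AA1, HSP90AB1, HSPA8 and HSPD1, and in at least 1 promoter of 0.608% of the 27305 genes in the table. The pair of units, which every match of 3 also contains, was in 8 of the 10 genes and in 16.2% of all genes. Counted by promoter, the pair was in 9 of the 16 of these genes and in 13.5% of all 35116. HSPA5 and HSPH1 had neither in the window. HSPA5 held the ER stress element 66 to 48 bases before its start, an element present in 0.0916% of all genes. The short core that HIF binds together with ARNT, ACGTG or GCGTG on either strand, was in promoters of DNAJB1, HSP90AA1, HSP90AB1 and HSPD1, or 4 of 10 genes, against 52.4% of all genes. Counted by promoter it was in 10 of 16, against 48.4% of all, so which side is higher depends on the unit counted. In the windows drawn, the longer heat shock elements lay 88 to 76 bases before the start of HSP90AA1, 55 to 43 and 230 to 218 bases before that of HSPA8, and overlapped one another in HSPD1. HSPA1A and HSPA1B, which lie next to each other on chromosome 6, shared 93.6% of the columns of an alignment of their 250 upstream bases.

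**Figure D1:**
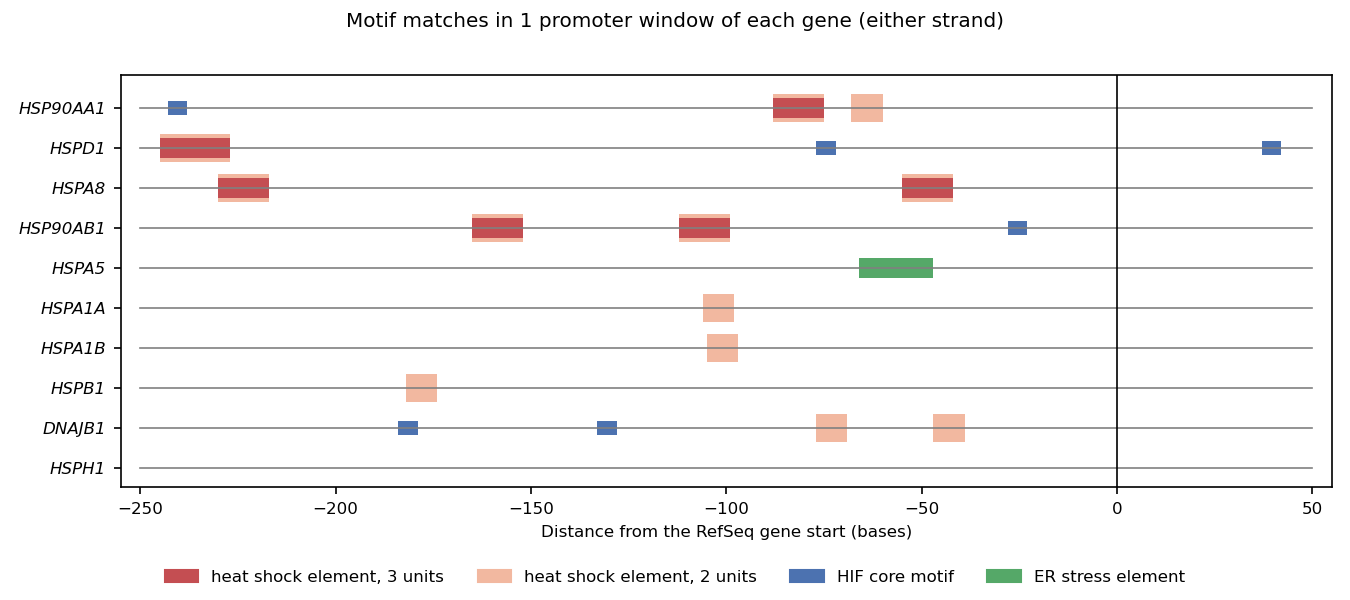
Positions of motif matches in 1 window of each gene, with the distance from the RefSeq gene start in bases on the horizontal axis and genes as rows; colours stand for the motifs, and bars for the pair of units are drawn behind those for 3 units. Elements of 3 units are seen in 4 genes, the ER stress element in HSPA5 alone among the 10, and no match in HSPH1.

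The labels were checked before the results. ARNT stood at 62.4 ± 1.53 and 69.1 ± 3.81 CPM (counts relative to library size, with scaling between libraries) in normoxia and hypoxia siControl and at 13.4 ± 0.56 and 15.3 ± 1.04 CPM in the siARNT groups (SD, n = 3). The HIF targets CA9 and NDRG1 were at 12.0 and 135 CPM in normoxia siControl and at 116 and 1146 CPM in hypoxia siControl. With siARNT they were at 22.4 and 118 CPM in normoxia and at 26.5 and 201 CPM in hypoxia. CA9 was thus higher with siARNT than with siControl in normoxia, and NDRG1 was still higher in hypoxia than in normoxia with siARNT. All 10 epithelial markers averaged over 1 CPM. Under 1 CPM were 5 of 6 fibroblast, 4 of 5 leukocyte, 4 of 4 acinar and 3 of 3 islet markers and the 3 endothelial markers that matched. The exceptions were LUM at 449 and LYZ at 186 CPM. The filter on low counts was passed by all 10 epithelial markers, and by 4 fibroblast, 2 leukocyte, 1 endothelial, 0 acinar and 1 islet markers. CD3E, AMY2A, INS and SST had 0 counts. The summed fibroblast list, nearly all of it LUM, was higher in hypoxia siControl (567.6 to 593.6 CPM) than in normoxia siControl (401.8 to 455.6 CPM) and hypoxia siARNT (366.7 to 468.8 CPM). The summed leukocyte list, nearly all of it LYZ, was lower with siARNT than with siControl in normoxia (164.1 to 188.6 against 213 to 229.5 CPM) and in hypoxia (129.9 to 158.6 against 184.5 to 219.5 CPM). In normoxia the summed epithelial list was higher with siARNT (7140 to 10040 CPM) than with siControl (6405 to 6961 CPM). Its genes did not move together: KRT8 averaged 2427 CPM with siARNT against 1312 with siControl, and CEACAM6 1911 against 2682 CPM. The part of these lists in the results was not tested. Library totals ran from 38.53 to 84.34 M gene counts. The labels do not say whether the triplicate wells came from separate cultures, so the p-values measure the spread between these samples, which may be technical. In RNA from whole wells, fewer cells with a transcript and less of it per cell cannot be told apart. Libraries also differed in how levels followed the GC content of genes. This slope, the change in log2 CPM per 10% of GC relative to the other libraries, ran from -0.21 in normoxia siControl A to 0.43 in normoxia siARNT B, the steepest of the 12, and results that rest on that library are given below with and without it.

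Per kb of exon, the 10 genes spanned a wide range and kept much the same order in the 4 groups. The length is that of all annotated exons of a gene merged, not of the transcript in use. It ran from 1634 bases in HSPB1 to 8390 in HSPH1, and the order between genes depends on it. Without it, HSPD1 (1557 CPM) stood above HSP90AB1 (1523 CPM) in normoxia siControl. In normoxia siControl HSPA8, the constitutive HSP70 of the cytosol, was highest at 659 ± 13.2 CPM per kb, followed by HSP90AB1, the constitutive HSP90, at 511 ± 6.93 CPM per kb (SD, n = 3). HSPD1 and HSP90AA1, the inducible HSP90, came next at 367 ± 13.4 and 366 ± 15.02 CPM per kb, and their libraries overlapped. HSPA5 (193 ± 8.54 CPM per kb), HSPH1 (44.2 ± 2.52) and DNAJB1 (26.5 ± 0.356) each stood clear of their neighbours. The inducible HSP70 genes HSPA1B and HSPA1A, at 7.71 ± 1.56 and 6.17 ± 0.962 CPM per kb, overlapped each other, and HSPA1A overlapped HSPB1, at 4.75 ± 1.79 CPM per kb. The first 7 places were the same in all 4 groups, and HSPD1 and HSP90AA1 overlapped in each. The order changed only among the 3 lowest genes, where HSPB1 was 8th in both siARNT groups and 10th in both siControl groups. Neighbours among these 3 overlapped in each group, and the 8th place rested on the library with the highest GC slope. HSPB1 had 33.0 CPM per kb in normoxia siARNT B but 9.10 in both A and C. There HSPA1A had 8.23 and 10.0 and HSPA1B 8.85 and 10.1 CPM per kb. In hypoxia siARNT C HSPB1 had 14.1 CPM per kb, but 4.52 in A and 7.71 in B. There HSPA1A had 5.08 and 7.26 and HSPA1B 6.05 and 7.60 CPM per kb. In normoxia siARNT HSPB1 came to 17.1 ± 13.8 CPM per kb and overlapped DNAJB1, which in turn overlapped HSPH1.

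**Figure D2:**
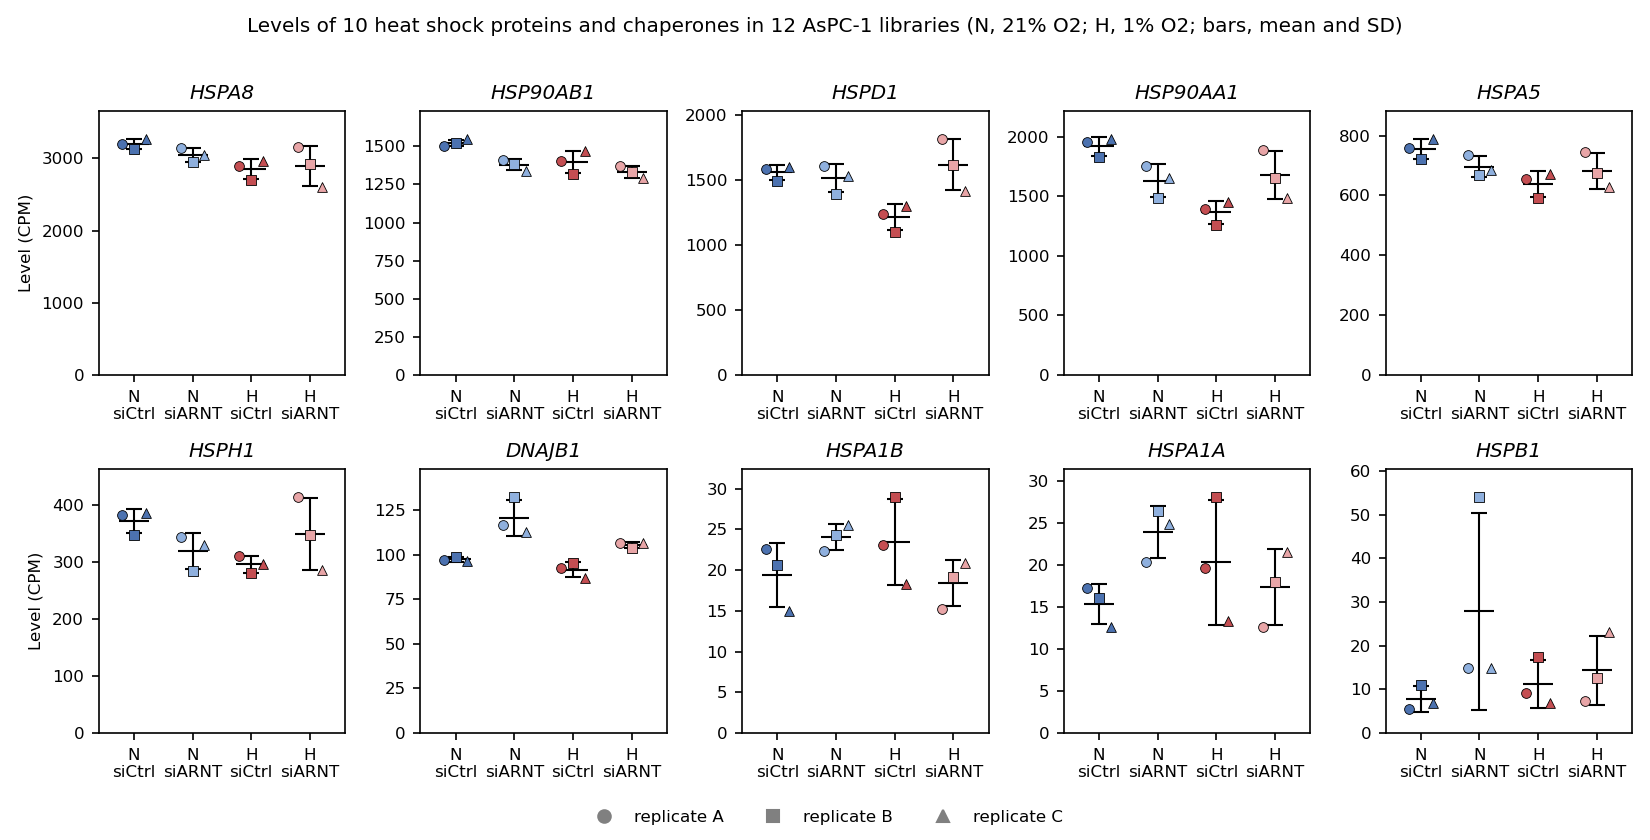
Level of each gene in CPM on the vertical axis, from 0, in the 4 groups; each point is a library (symbol, replicate letter) and the bar gives the mean and SD of 3. HSP90AA1 and HSPD1 show their lowest group in hypoxia siControl, and HSPB1 in normoxia siARNT has 1 library at 54.0 CPM beside 2 at 14.9 CPM.

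The first comparison asked what 24 h at 1% O2 did in cells that still had ARNT. None of the 10 genes rose. HSP90AA1, HSPD1 and HSPA5 fell, by 0.49, 0.36 and 0.24 on the log2 scale, and the other 7 did not pass the test (edgeR quasi-likelihood, Benjamini-Hochberg adjustment over all 16999 genes). These 3 of 10 stand against 25.3% of all tested genes called in this comparison, 10.4% higher and 14.9% lower, and the share among the members is near that of all genes. The median log2 fold change of the members was -0.145 beside 0.02 for all genes tested. With a correction for GC content 7 members fell and 0 rose, HSPA8, HSP90AB1, HSPH1 and DNAJB1 joining the other 3, while the calls over all genes rose to 7177.

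HSP90AA1 had 1954, 1830 and 1976 CPM in normoxia siControl A, B and C, and 1392, 1259 and 1448 CPM in hypoxia siControl. Every hypoxia library lay below every normoxia library. The log2 fold change was -0.49 (SE 0.09, adjusted p 0.00222 in edgeR), and the call held in 23 of 23 alternative fits, with the adjusted p between 3.83e-07 and 0.0146.

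HSPD1, the mitochondrial HSP60, had 1584, 1492 and 1595 CPM in normoxia and 1240, 1103 and 1301 CPM in hypoxia, again without overlap. Its log2 fold change was -0.36 (SE 0.09, adjusted p 0.0138 in edgeR). The call was lost without normoxia siControl A (adjusted p 0.0571) or C (0.0639) and without hypoxia siControl B (0.0677).

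HSPA5 had 758, 721 and 787 CPM in normoxia and 654, 590 and 672 CPM in hypoxia, with a gap between the groups. Its log2 fold change was -0.24 (SE 0.08, adjusted p 0.0345 in edgeR). DESeq2 gave an adjusted p of 0.0592, and the call was lost without normoxia siControl A (0.112) or C (0.158), hypoxia siControl A (0.0731) or B (0.154), or hypoxia siARNT B (0.0527).

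HSPH1, the HSP110 of the cytosol, missed the threshold with 381, 347 and 385 CPM against 310, 281 and 295 CPM (log2 fold change -0.33, SE 0.12, adjusted p 0.0571 in edgeR), although its groups did not overlap. It passed without normoxia siARNT B, hypoxia siARNT A or hypoxia siARNT C, where the lowest adjusted p was 0.0154. It also passed with the replicate letter as a block (adjusted p 0.0248) and with the transfected well as a block (0.0386). Same-letter libraries of these groups deviated together over all genes, with r of 0.279 to 0.622 in 3 of 3 pairs. Pairs of other letters ran from -0.467 to 0.336. Normoxia siControl A correlated more with hypoxia siControl C (0.336) than with A (0.279). The highest r was that of B with B, the library with the highest GC slope in each of these groups. These values do not show that the letters mark wells. HSPA8 and HSP90AB1, the constitutive pair, had smaller differences and no overlap. HSPA8 went from 3197 ± 63.8 to 2850 ± 135 CPM (SD, n = 3; log2 fold change -0.17, adjusted p 0.105 in edgeR, and 0.0402 without hypoxia siARNT C), and HSP90AB1 from 1523 ± 20.6 to 1398 ± 74.8 CPM (-0.12, adjusted p 0.116). DNAJB1 had 96.7, 98.8 and 96.4 CPM against 92.3, 95.0 and 87.0 CPM, a difference of -0.09 with an adjusted p of 0.345. HSPA1A, HSPA1B and HSPB1 had positive estimates (0.41, 0.27 and 0.54) with standard errors of 0.26, 0.18 and 0.58 and groups that overlapped, and none was called.

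The second comparison asked the same of cells depleted of ARNT. Here 0 of 10 members were called by edgeR, 0 by DESeq2, and 1 had an unadjusted p under 0.05 (DNAJB1). Over all genes 4.09% were called, 2.21% higher and 1.89% lower. HSP90AA1 had 1753, 1483 and 1654 CPM in normoxia siARNT and 1886, 1656 and 1487 CPM in hypoxia siARNT, and the groups overlapped (log2 fold change 0.04, SE 0.09). HSPD1 had 1607, 1395 and 1532 CPM against 1810, 1617 and 1417 CPM, with overlap (0.10, SE 0.09). HSPA5 had 736, 669 and 685 CPM against 745, 674 and 628 CPM (-0.03, SE 0.08), again with overlap. HSPA1B had 22.3, 24.4 and 25.5 against 15.2, 19.2 and 20.8 CPM without overlap (-0.39, adjusted p 0.254 in edgeR). DNAJB1 had 116.8, 132.0 and 112.6 CPM against 106.2, 103.4 and 106.7 CPM, a difference of -0.19 without overlap and with an adjusted p of 0.111 in edgeR. It was called with the GC correction (adjusted p 0.0472). Approximate intervals of 95% for HSP90AA1, from -0.14 to 0.22, and for HSPD1, from -0.09 to 0.28, did not reach the estimated falls in siControl. They take the SE with a normal distribution, which makes them narrower than the test would, and leave out the error of the falls themselves. The direct test of the difference follows, and HSPD1 missed its threshold there.

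The difference between the hypoxia effects of the siARNT and the siControl cells was tested directly, as an interaction term. It was called for 1 of 10 members, HSP90AA1, at 0.53 on the log2 scale (SE 0.13, adjusted p 0.041 in edgeR). Over all genes 4.69% were called, 2.49% positive and 2.19% negative. HSPD1 (0.45, adjusted p 0.0733) and HSPH1 (0.46, adjusted p 0.141) had values of the same sign that missed the threshold, and both were called with the GC correction and without hypoxia siARNT C (0.0221 and 0.0258). The HSP90AA1 call was lost without any single library other than hypoxia siControl C or hypoxia siARNT C. Its adjusted p was then 0.111, 0.0712 and 0.12 without normoxia siControl A, B and C, 0.0527, 0.0591 and 0.0751 without normoxia siARNT A, B and C, 0.0886 and 0.098 without hypoxia siControl A and B, and 0.0867 and 0.0972 without hypoxia siARNT A and B. The estimate itself stayed between 0.40 and 0.61 over all alternatives.

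**Figure D3:**
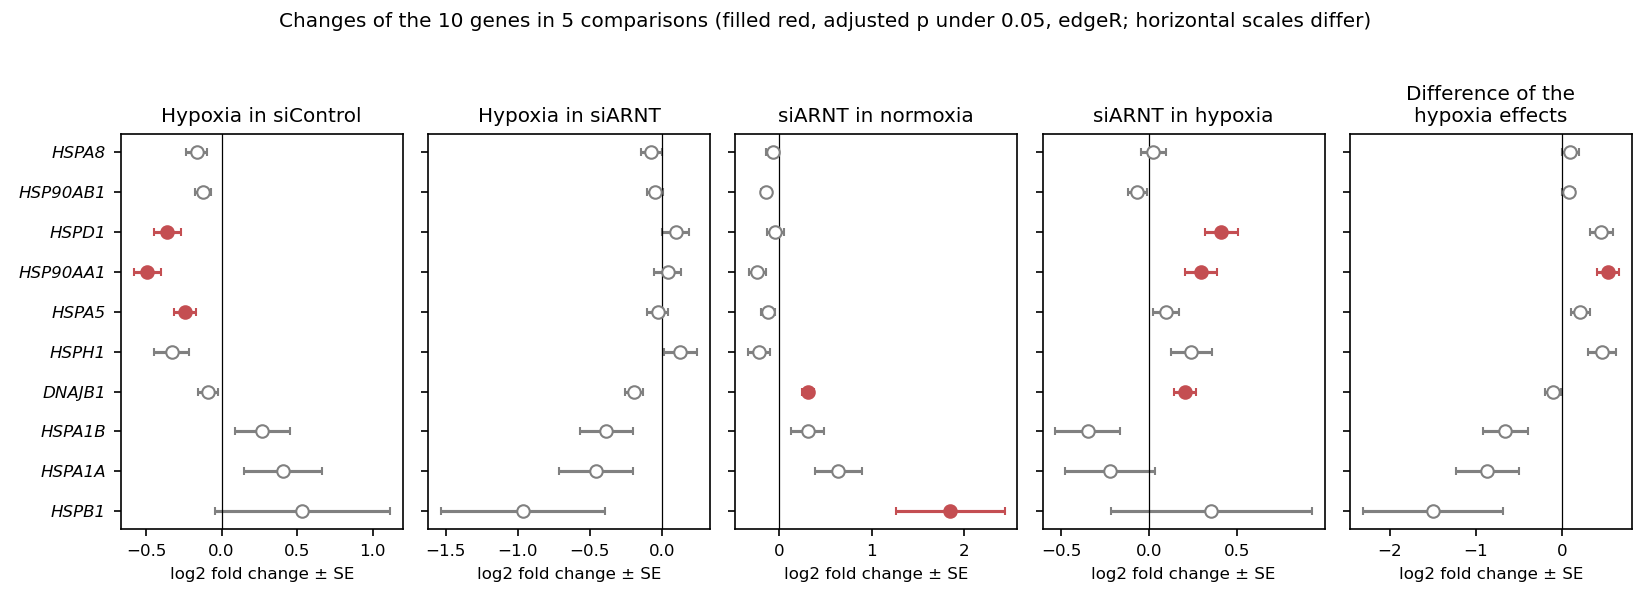
Log2 fold change with its standard error for each gene in the 5 comparisons, the last being the hypoxia effect in siARNT minus that in siControl; filled red points passed an adjusted p of 0.05, and the horizontal scales differ. HSP90AA1, HSPD1 and HSPA5 lie left of 0 for hypoxia in siControl, and HSPD1, HSP90AA1 and DNAJB1 right of 0 for siARNT in hypoxia.

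Depletion of ARNT at 21% O2 was compared next, which asks what ARNT does without the hypoxic stimulus. DNAJB1, the J-domain partner of HSP70, and HSPB1, the small heat shock protein also called HSP27, rose, and 8 members were not called, against 20.2% of all genes called, 9.42% higher and 10.8% lower. DNAJB1 had 96.7, 98.8 and 96.4 CPM with siControl and 116.8, 132.0 and 112.6 CPM with siARNT, without overlap. The log2 fold change was 0.31 (SE 0.06, adjusted p 0.00663 in edgeR), and the call held in 22 of 22 alternative fits, with the adjusted p at most 0.0352.

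HSPB1 had 5.4, 11.0 and 6.8 CPM with siControl and 14.9, 54.0 and 14.9 CPM with siARNT, where replicate B stood far above the others and the groups did not overlap. Its log2 fold change of 1.85 (SE 0.59, adjusted p 0.0463 in edgeR) was the largest of any member in any comparison. Without normoxia siARNT B, whose GC slope was the highest, it was 0.94 with an adjusted p of 0.191. With the GC correction it was 1.04 (adjusted p 0.046), and with both changes 0.64 (0.151). The call was also lost without normoxia siControl A (0.161), B (0.0622) or C (0.141), without hypoxia siControl A (0.0633) or C (0.0535), and without hypoxia siARNT B (0.0656).

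HSPA1A missed the threshold with 17.2, 16.1 and 12.6 against 20.4, 26.4 and 24.9 CPM (0.64, SE 0.26, adjusted p 0.0923 in edgeR), and DESeq2 called it at 0.0358. HSPA1B, its near copy, had 22.6, 20.6 and 15.02 against 22.3, 24.4 and 25.5 CPM, with overlap (0.31, SE 0.18, adjusted p 0.234). HSP90AA1 (-0.24, adjusted p 0.084) and HSP90AB1 (-0.14, adjusted p 0.0737) had values below 0 and groups that did not overlap. Among the fits that left out 1 library each passed in 1, HSP90AA1 without hypoxia siARNT A (0.0491) and HSP90AB1 without hypoxia siControl B (0.0335). HSP90AA1 also passed with the replicate letter as a block (adjusted p 0.0405). HSPD1, HSPA5, HSPA8 and HSPH1 ranged from -0.22 to -0.04 with none called.

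The fourth comparison set siARNT against siControl within hypoxia. HSPD1, HSP90AA1 and DNAJB1 rose by 0.41, 0.29 and 0.21 on the log2 scale and 7 members were not called. Over all genes 29.1% were called, 14.4% higher and 14.7% lower, and 3 of 10 is again near the share of all genes. This comparison and the first share the hypoxia siControl libraries. HSPD1 had 1240, 1103 and 1301 CPM in siControl and 1810, 1617 and 1417 CPM in siARNT, without overlap (SE 0.09, adjusted p 0.00562 in edgeR), and it was called in 22 of 22 alternatives.

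HSP90AA1 had 1392, 1259 and 1448 CPM against 1886, 1656 and 1487 CPM, where the groups came close but did not overlap (SE 0.09, adjusted p 0.031 in edgeR). The call was lost without hypoxia siControl A (0.0772) or B (0.136), hypoxia siARNT A (0.135) or B (0.0713), or normoxia siControl A (0.055) or C (0.0541).

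DNAJB1 had 92.3, 95.0 and 87.0 against 106.2, 103.4 and 106.7 CPM, also without overlap (SE 0.06, adjusted p 0.0304 in edgeR). Its call was lost without hypoxia siControl A (0.0636) or C (0.105) and without hypoxia siARNT A (0.0539), B (0.062) or C (0.068). DNAJB1 was the one member called with siARNT at both oxygen levels. The difference between its effects at the oxygen levels is the interaction, -0.10 (SE 0.09, adjusted p 0.53). HSPH1 (0.24, adjusted p 0.15, and 0.0164 without hypoxia siARNT C), HSPA5 (0.10, adjusted p 0.386), HSPA8 (0.02, adjusted p 0.837) and HSP90AB1 (-0.07, adjusted p 0.374) were not called, nor were HSPA1A (-0.23), HSPA1B (-0.35) and HSPB1 (0.35).

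Within groups, the members' values moved with the GC slope of the library. The members' exons hold from 40% GC in HSPH1 to 64.3% in HSPB1. In each group 1 library had the highest slope: replicate B in normoxia siControl (-0.04), normoxia siARNT (0.43) and hypoxia siControl (0.13), and replicate C in hypoxia siARNT (0.24). HSPB1 and DNAJB1, at 64.3% and 53% GC, were highest within their group in that library in 4 of 4 groups, HSPA1A (59.7%) in 3 and HSPA1B (58.7%) in 2. HSPH1, HSPD1, HSP90AA1, HSPA5 and HSPA8, at 40% to 47% GC, were lowest in it in 4 of 4 groups, and HSP90AB1 (48.1%) in 2. The mean slope also differed between groups, since 3 of 3 normoxia siControl libraries were below 0 and the highest was in normoxia siARNT. The part of the slope in the differences between groups was not tested beyond the GC-corrected fits given above.

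**Figure D4:**
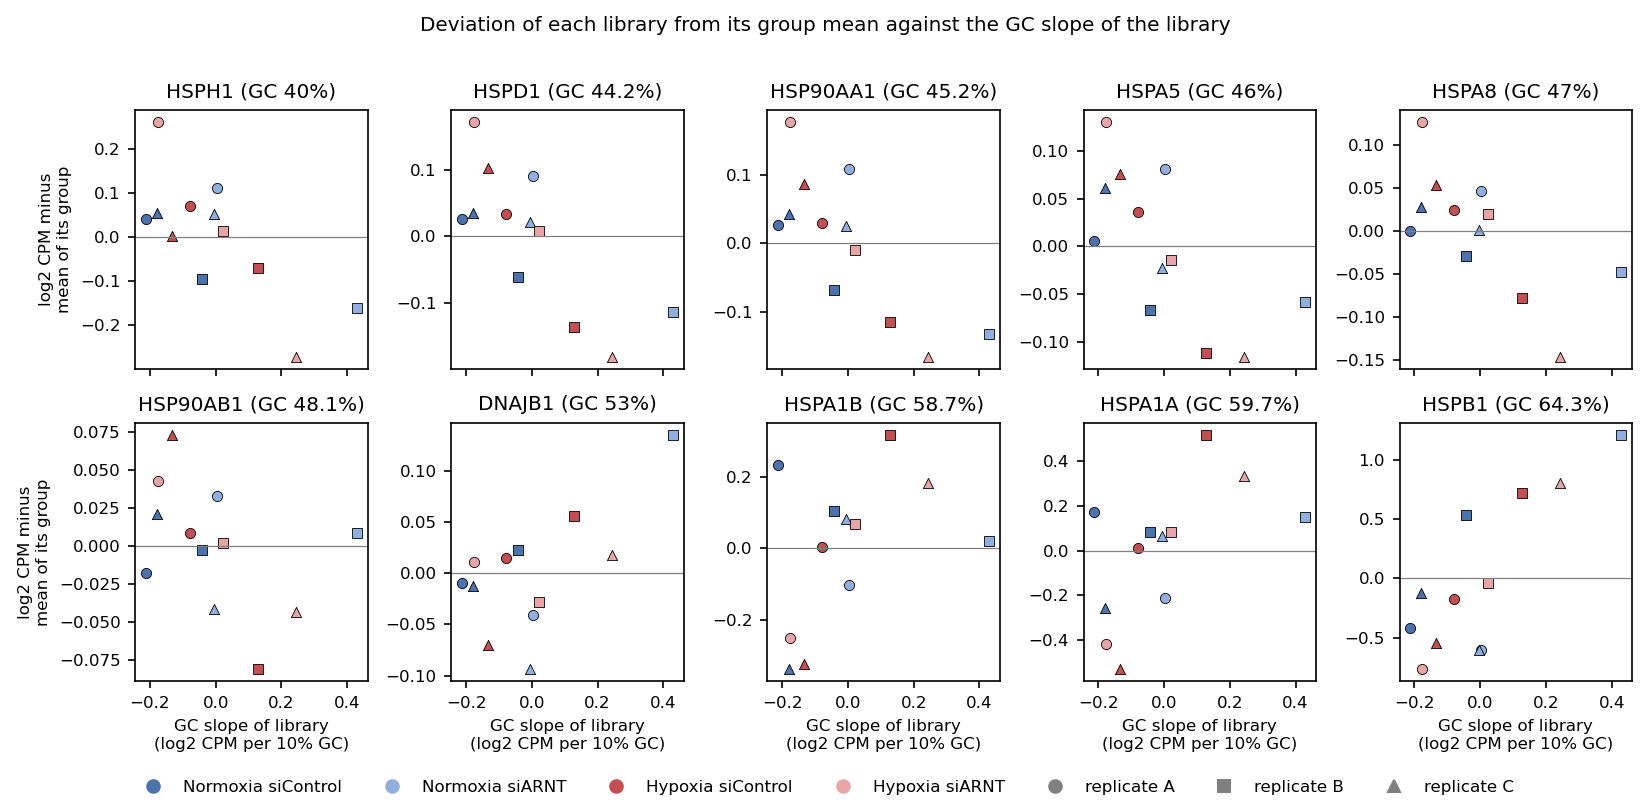
For each gene, ordered by the GC content of its exons, the log2 CPM of a library minus the mean of its group (vertical) is drawn against the GC slope of that library (horizontal, log2 CPM per 10% GC); colours are groups and symbols replicate letters. Points of HSPH1, HSPD1, HSP90AA1, HSPA5 and HSPA8 descend from left to right, and those of HSPB1 ascend.

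The genes most like each member were taken by 1 rule. As the 3 genes with the highest Pearson r of log2 CPM over the 12 libraries, among 9734 genes averaging 5 CPM or more, HSPB1 was most like CPSF1, FUOM and VPS28 (r 0.994 to 0.995), HSPD1 most like C12orf4, IPO5 and VWA8 (0.982 to 0.993), and HSP90AA1 most like BRD7, MASTL and SMC6 (0.985 to 0.987). The exons of the 3 genes like HSPB1 held 62.3%, 64.6% and 64.0% GC, and those of the 3 like HSP90AA1 held 43.1%, 43.1% and 37.6%. Not all members had nearest genes so close in GC. ARF6 (42.7%) was among the 3 most like HSPA1B (58.7%), and CAMTA1 (49.4%) among those most like HSPH1 (40%). HSPA5 was most like a long noncoding RNA, DCLRE1C and DLGAP5 (0.973 to 0.982), HSPA8 most like DNTTIP2, KIF18A and PBDC1 (0.967 to 0.971), and HSP90AB1 most like ZNF552, TAMM41 and AMZ2 (0.963 to 0.974). DNAJB1 was most like CENPV, LIMK2 and JOSD1 (0.971 to 0.981), HSPH1 most like MAP3K5, CAMTA1 and the pseudogene ZNF271P (0.958 to 0.969). HSPA1A and HSPA1B were each other's nearest gene (0.915). These values describe 12 libraries that share 4 groups, depth and GC slope.

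Reads of near-identical copies limit some of these values. HSPA1A and HSPA1B code for the same protein from separate genes, and reads that fit both could be lost to the counts or be split. In the deposited splicing files, which give the mean read coverage of an interval in each library, an interval of 42 bases present in both genes had exactly equal coverage in 10 of 12 libraries, over a range from 89.3 to 515.3 reads, and differed by at most 5.42% in the others. A second interval of 231 bases was equal in 4 of 12 libraries and differed by at most 6.96%. Coverage in those files barely tells the genes apart, and the gene counts of this pair are uncertain. Pseudogenes held few of the counts: 18 of HSPD1 held 0.814% of the summed counts, 17 of HSPA8 held 0.24%, and 5 each of HSP90AA1 and HSP90AB1 held 0.55% and 0.68%. HSPB1 had 2 with 0.838%. Adding these counts to their parents, and HSPA1A to HSPA1B, changed no call.

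Splicing of the members was tested from the same files, with the share of reads for the inclusion form per event. Both junctions of an included exon were summed against the junction that skips it. For skipped exons this share therefore stands above a percent spliced in (PSI) that averages the inclusion junctions, and it understates skipping. The 10 genes had 50 junction events, of which 47 held at least 20 reads in every library, and 15 intron retention events, of which 14 did. In each of the 5 comparisons 0 member events were called by edgeR for junctions or by limma for introns, and limma on the junction events also called 0. In most of the tested intron events the spliced form had 0 reads in some libraries, as in 11 libraries for HSPA8 intervals of 50 and 56 bases. Some intervals were as short as 24 bases (HSP90AB1), so the absence of intron calls says little about retained introns. At an unadjusted p under 0.05 there was 1 event for hypoxia in siControl, 1 for siARNT in normoxia and 1 for the interaction, and 0 in the other comparisons. Calls were rare over the whole files as well. Of 38838 junction events 0.00515% were called for hypoxia in siControl, 0.00257% for hypoxia in siARNT, 0% for siARNT in normoxia, 0.00772% for siARNT in hypoxia and 0% for the interaction. Of 3827 intron events 0.183%, 0%, 0.0261%, 0.261% and 0.0523% were called in the same order.

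HSPH1 has a known choice between a longer and a shorter protein through 1 exon. That exon, of 132 bases at chr13:31717929-31718060 as the event files give it (build not named there), was included at 99.04% ± 0.15, 99.02% ± 0.38, 99.1% ± 0.17 and 98.5% ± 0.28 of junction reads (SD, n = 3), in the order of normoxia with siControl and with siARNT and then hypoxia with siControl and with siARNT. None of its comparisons was called (adjusted p from 0.831 to 1 in edgeR). The exon of 100 bases nearer its 5′ end, at chr13:31726989-31727088, was skipped more often, with inclusion at 90.2% to 96.3% of junction reads over the 12 libraries. In HSPA8, whose introns hold small nucleolar RNAs, an alternative 3′ site was used at 18.0% to 29.7% and an alternative 5′ site at 6.65% to 9.43% of junction reads. Of the 47 member junction events, 24 had at least 1 library listed at 0 for a form. A HSPD1 3′ site was listed at 0 reads in the 3 normoxia siControl libraries, at 61, 38 and 42 in normoxia siARNT, at 29, 24 and 37 in hypoxia siControl, and at 36, 0 and 0 in hypoxia siARNT, and was called in no comparison with all libraries. Without hypoxia siARNT A its interaction was called (adjusted p 0.034 in edgeR). Whether such zeros are absent reads or a failed count was not tested.

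The rest of the chaperone network was read from 10 lists of genes, apart from the members, some of which share genes. Over all genes the share called is the one given above for each comparison, and nothing is read from a list beyond its counts. The chaperonins, TRiC subunits of the cytosol together with the HSPD1 partner HSPE1, had 8 of 9 falls and 0 rises with hypoxia in siControl, with a median of -0.39 beside 0.02 for all genes, and 6 to 8 fell when 1 library was left out. HSPE1 fell by 0.64 (adjusted p 0.000717 in edgeR) and CCT6A by 0.63 (adjusted p 0.000184). In siARNT 0 of 9 were called with hypoxia. With siARNT in hypoxia 4 rose and 1 fell (3 to 5 rose with 1 library left out, and 0 fell without hypoxia siControl A or C or hypoxia siARNT B or C), the largest rises being HSPE1 (0.51, adjusted p 0.00263) and CCT3 (0.43, adjusted p 0.000223).

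Among relatives of HSP70, HSP90 and HSP110, 4 of 11 tested fell and 1 rose with hypoxia in siControl. The HSP110 genes HSPA4L (-0.93, adjusted p 6.78e-05 in edgeR) and HSPA4 (-0.67, adjusted p 0.00119) fell most, and with siARNT in hypoxia HSPA4 (0.50, adjusted p 0.00607) and HSPA12A (0.54, adjusted p 7.28e-05) were among 3 that rose against 1 that fell. Without normoxia siARNT B 5 rose, and without hypoxia siControl B 2 fell. J-domain proteins had 9 of 25 falls and 0 rises with hypoxia in siControl, led by DNAJC10 of the ER (-0.80, adjusted p 0.000184). With siARNT in hypoxia 7 rose and 3 fell, but 4 rose without hypoxia siControl B or hypoxia siARNT B. DNAJB4, close kin of DNAJB1, fell with siARNT in normoxia (-0.59, adjusted p 0.00579) and in hypoxia (-0.61, adjusted p 0.0024), opposite to DNAJB1.

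Co-chaperones of HSP90 and HSP70 had 6 of 14 falls and 0 rises with hypoxia in siControl, and 7 rises and 0 falls with siARNT in hypoxia. FKBP5, which binds HSP90 in steroid receptor complexes, fell by 0.84 with hypoxia in siControl (adjusted p 3.92e-06 in edgeR) and rose by 0.92 with siARNT in hypoxia (adjusted p 1.1e-06). Nucleotide exchange factors had 2 of 10 falls with hypoxia in siControl, BAG2 (-0.54) and GRPEL1 (-0.21), and 1 without any single siControl library other than hypoxia siControl C or 4 without normoxia siARNT B. With siARNT in hypoxia SIL1 rose (0.37, adjusted p 0.0395, lost without most single libraries) while BAG4 (-0.68) and BAG1 (-0.44) fell. Of the 13 genes for mitochondrial folding and proteases 5 fell with hypoxia in siControl, among them HSPA9, the mitochondrial HSP70 (-0.45, adjusted p 0.0016 in edgeR). Without any 1 normoxia siControl library, or hypoxia siControl A, 3 fell.

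Other genes known as HSF1 targets showed 11 of 22 falls and 0 rises with hypoxia in siControl, with a median of -0.30, and 7 rises and 2 falls with siARNT in hypoxia. With 1 library left out the falls numbered 8 to 12, and with total count scaling the rises with siARNT numbered 13. This list holds HSPE1, HSPA4L and HSPA4, already given. ZFAND2A, an arsenite and heat inducible gene, fell with hypoxia in siARNT (-0.33, adjusted p 0.0125 in edgeR) and with siARNT in hypoxia (-0.50, adjusted p 5.88e-05). Among 5 heat shock factors and regulators, HSF2 fell with hypoxia in siControl (-0.35, adjusted p 0.0236 in edgeR, lost without any 1 normoxia siControl library or hypoxia siControl A or B) and rose with siARNT in hypoxia (0.43, adjusted p 0.00713). HSBP1L1 fell with siARNT in hypoxia (-0.33, adjusted p 0.0317), a call lost without hypoxia siControl A or B or hypoxia siARNT C.

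The ER list, where HSPA5 belongs, had 3 of 26 falls and 0 rises with hypoxia in siControl, beside 14.9% of all genes called lower, with DNAJC10 and DNAJB11 (-0.46, adjusted p 0.000252 in edgeR) most, and 6 fell without normoxia siARNT B. With siARNT 5 rose and 0 fell in normoxia and 7 rose and 1 fell in hypoxia, where 4 rose without hypoxia siControl B or hypoxia siARNT A or B. EDEM1, which clears misfolded glycoproteins, rose by 0.79 (adjusted p 3.96e-06) and 0.96 (adjusted p 2.94e-07), and ERN1 (IRE1), a sensor of the unfolded protein response, rose by 0.57 in hypoxia (adjusted p 0.000273). ATF4 fell there (-0.24, adjusted p 0.0119). Of the 9 other small heat shock proteins 0 were tested. HSPB9 and HSPB11 were not matched to a gene ID, so their levels are unknown here, and the others did not pass the filter on low counts. Counts over all genes split into 2452 higher and 2496 lower for siARNT in hypoxia, 375 and 321 for hypoxia in siARNT, and 424 and 373 for the interaction, but with total count scaling these were 3473 and 1973, 634 and 330, and 1125 and 370.

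**Figure D5:**
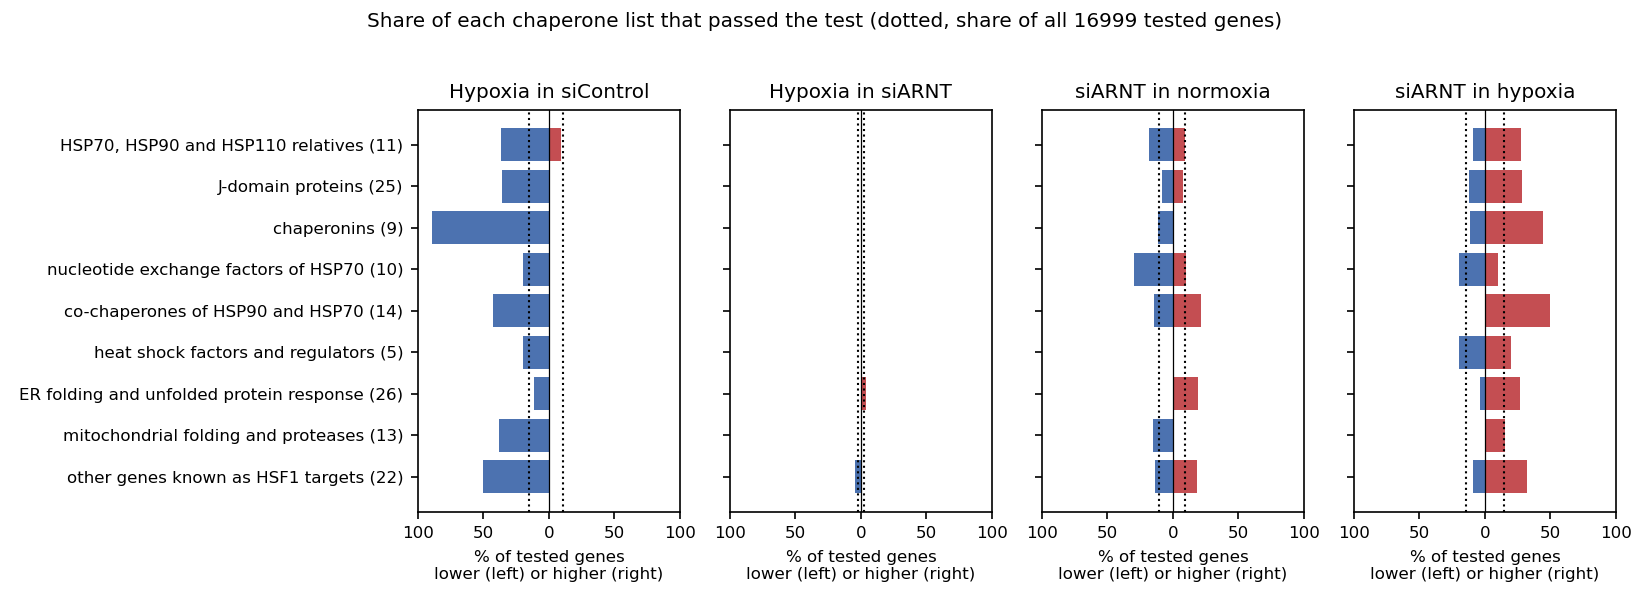
Share of the tested genes of each list (number tested in parentheses) that passed an adjusted p of 0.05, lower to the left and higher to the right, in 4 comparisons; dotted lines give the same shares over all 16999 genes tested. Chaperonins stand at 8 of 9 lower for hypoxia in siControl, and hypoxia in siARNT shows almost no bars.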

How the data were processed

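Poly(A) RNA of 12 AsPC-1 libraries was sequenced with a stranded kit, per the labels' protocols. The authors deposited raw read counts per Ensembl gene, and the submitters' processing notes name Trimmomatic, STAR 2.4.2a and GRCh38.p10 with no role or order. Counting settings are not given in the sources used here. The deposited splicing tables hold read counts of the inclusion and exclusion forms, the fraction of inclusion (PSI) and, for introns, mean read coverage, and their caller and build are not given in the sources used here. Reads not on a gene (22.71% to 25.2%) were left out.

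Genes passing filterByExpr (16999) were fitted in edgeR 4.0.16 (R 4.3.3) with TMM scaling, a robust quasi-likelihood model of 4 group means over 12 libraries and Benjamini-Hochberg adjustment at 0.05 over all genes. CPM values use TMM library sizes, and CPM per kb the merged length of all annotated exons of the gene. The members and lists were chosen with earlier results of these data known. Lists were described by counts, and from each the called genes with at least 5 CPM and no overlap between groups were named, at most 2 rises and 2 falls per comparison. Named in the text are some of these. Junction events with at least 20 reads in every library were tested on their counts in edgeR, and intron retention in limma 3.58.1 on the log2 ratio of coverage to junction reads with a pseudocount of 0.5. Alternatives were DESeq2 1.42.0, other scalings, no filter, blocks, a GC offset (GC known for 97.3% of genes), summed copies and leaving out each library. On simulated counts for hypoxia in siControl (16999 genes) the test recovered 49 of 100 changes of 0.5 and 91 of 100 of 1 on the log2 scale, with 8 false calls. For splicing it recovered 88 of 200 events changed by 1 on the log2 odds scale, with 2 false calls. The changed events were drawn from well-covered ones in which neither form was rare. Most member junction events have a rare form, so this recovery does not apply to them. Replicates differed by more than counting noise (chi-square per degree of freedom 3.947 to 79.5 over 12 pairs).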

Additional observations from a re-analysis of the deposited data

Results flagged for a closer look

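The effect of hypoxia differed between siARNT and siControl cells, by the interaction term in edgeR at an adjusted p of 0.05, for HSP90AA1 among the members. The difference, siARNT minus siControl, was 0.53 on the log2 scale (adjusted p 0.041). For HSP90AA1 the call held in 11 of 22 alternative fits, and in 2 of the 12 that left out 1 library. It was also called for 11 genes of the lists, 9 above 0 and 2 below. By list, some of which share genes, these were 3 of 11 tested relatives of HSP70, HSP90 and HSP110 and 2 of 25 J-domain proteins. They were 3 of 9 chaperonins, 2 of 14 co-chaperones, 4 of 22 HSF1 targets, 1 of 26 ER genes and 1 of 13 mitochondrial genes. In the other lists with tested genes 0 were called. Over all genes 4.69% were called, 2.49% positive and 2.19% negative. Those 797 calls became 272 to 1188 with 1 library left out. FKBP5 (0.79, adjusted p 0.000467) and AHSA1 (0.36, adjusted p 0.0262) are co-chaperones of HSP90. HSPE1 (0.64, adjusted p 0.028), CCT5 (0.37, adjusted p 0.00971) and CCT6A (0.44, adjusted p 0.05 as rounded) are chaperonins. DNAJC10 (0.64, adjusted p 0.028) and DNAJC9 (0.35, adjusted p 0.0424) have J domains, and HSPA4L (0.66, adjusted p 0.0274) and HSPA14 (0.44, adjusted p 0.0351) are relatives of HSP70. Values below 0 were those of ZFAND2A (-0.43, adjusted p 0.0139) and of HSPA2, a testis-enriched HSP70 averaging 3.87 CPM here (-1.24, adjusted p 0.028).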

How the results depend on the processing

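Of 50 member values, 10 changed sign under some alternative, none of them among the 9 called, and 3 of the 9 were called under every alternative run. Each count of members called is followed here by the calls over all genes in the same fit. For hypoxia in siControl 6 members were called with total count scaling (4686 genes), 7 with the GC correction (7177), 5 in a fit of only the 6 samples (5726), and 1 to 5 with 1 library left out (2873 to 5242). For hypoxia in siARNT 1 was called with the GC correction (3771). For siARNT in normoxia 1 was called with no low-count filter (2636), and 1 to 3 with 1 library left out (1571 to 4148). For siARNT in hypoxia 5 were called with total count scaling (5446), 5 with the GC correction (7835), and 1 to 3 with 1 library left out (3537 to 5847). For the interaction 0 were called with DESeq2 size factors (643), 2 with total count scaling (1495), 3 with the GC correction (3096), and 0 to 3 with 1 library left out (272 to 1188). Leaving out normoxia siARNT B together with the GC correction, chosen after seeing the data, gave 7 calls for hypoxia in siControl (7479), 1 for siARNT in normoxia (4430), 5 for siARNT in hypoxia (8149) and 3 for the interaction (2894). The calls over all genes, of 4299, 696, 3431, 4948 and 797 as reported, thus moved with these settings too. Member splicing events called for the interaction numbered 0 to 1 with 1 library left out, the 1 without hypoxia siARNT A. The cause of these moves was not tested.

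Replicate letters did not clearly pair the samples over all 4 groups. Same-letter deviations correlated above 0.1 in 12 of 18 pairs (r from -0.77 to 0.83) and those of other letters in 13 of 36, and 5 of 12 libraries correlated best with their own letter. Among the 3 groups other than hypoxia siARNT, 9 of 9 same-letter pairs were above 0.1, against 3 of 9 with hypoxia siARNT. In those 3 groups A also correlated with C, from 0.27 (normoxia siControl C, hypoxia siControl A) to 0.617 (normoxia siARNT A, hypoxia siControl C). Replicate B had the highest GC slope in those 3 groups, and replicate C in hypoxia siARNT. The part of the slope in these correlations was not tested. The labels do not say what the letters mark. With the replicate block 4 members were called for hypoxia in siControl (4740 genes), HSPH1 being added, 0 for hypoxia in siARNT (862), 3 for siARNT in normoxia (4732), HSP90AA1 being added, 3 for siARNT in hypoxia (5425), and 2 for the interaction (960), HSPD1 being added (adjusted p 0.0435 in edgeR). With the block and the GC correction together 7, 1, 3, 5 and 3 were called in the same order (7423, 3983, 5868, 8070 and 3328). With the transfected well as a block, read from siRNA and letter, 4 members were called for hypoxia in siControl (3954), 0 for hypoxia in siARNT (136) and 1 for the interaction (373). HSPB1, HSPA1A and HSPA1B had the lowest levels per length, and what depth limits was not tested by level.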
